A study of Mus musculus with 6 samples.

Results

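The nuclear-encoded genes of the mitochondrial respiratory chain were read in CD8+ T cells that carried or lacked Id2. They were chosen by symbol: every listed gene whose mouse symbol starts with Ndufa, Ndufb, Ndufc, Ndufs, Ndufv, Uqcr, Cox4, Cox5, Cox6, Cox7, Cox8 or Atp5, together with the 4 Sdh subunit genes, Cyc1 and Cycs. The rule found 92 genes among the 16749 listed in at least 1 library, and 88 of them passed the filter on low values and were tested. The 6 libraries were made from total RNA of sorted CD8+ T cells (FACS). The cells came from a tissue the labels shorten to iLN, taken from C57BL/6 mice that bore tumors and had been given oxaliplatin, a platinum drug that damages DNA. All animals carried floxed Id2 (Id2f/f). The 3 WT libraries had no Cre, and the 3 knockout libraries also carried Cd4cre, which deletes floxed DNA in T cells from the stage at which thymocytes express CD4. Cre and the loss of Id2 cannot be told apart here. No label used here says that the samples came from separate animals, and the spread behind each p-value may therefore be technical.

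The respiratory chain moves electrons from NADH and succinate to oxygen and uses the energy released to make ATP. Complex I oxidises NADH, complex II oxidises succinate, complex III passes the electrons to cytochrome c, complex IV hands them to oxygen, and complex V is the ATP synthase. Each complex other than complex II combines nuclear subunits with subunits encoded by mitochondrial DNA, which were not analysed here. Resting and memory CD8+ T cells depend on oxidative phosphorylation for most of their ATP, and activated cells expand their mitochondria while they also raise glycolysis.

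Library sizes were between 8307284 and 8495123 expected counts in WT and between 7699181 and 7990095 in knockout, so depth was lower in every knockout library. Id2 stood at 371, 147 and 149 FPKM (fragments scaled to transcript length and library depth) in WT and at 1.67, 2.64 and 2.12 in knockout. The 5 CD8 T cell markers summed to 2139 to 2515 FPKM in WT and 2113 to 2667 in knockout. B cell markers summed to 940, 3135 and 3664 FPKM in WT replicates 1 to 3 and to 692, 2985 and 624 in knockout replicates 1 to 3. All 13 tested had a fitted log2 fold change below 0, with a median of -0.86, and 0 of the 13 passed in edgeR. Of 6 tested markers of myeloid and dendritic cells 2 fell, Itgax and Zbtb46. Itgax went from 12.85, 5.66 and 5.54 FPKM in WT to 0.34, 0.96 and 0.35 in knockout. Zbtb46 went from 3.86, 4.22 and 3.46 FPKM in WT to 0.68, 1.6 and 0.45 in knockout. The other tested markers did not pass. Itgam and Cd68 had knockout values below WT, Xcr1 was near level (log2 fold change -0.1) and Lyz2 was higher (0.28). Siglech, left out by the filter, ranged from 0.24 to 0.3 FPKM in WT and from 0.39 to 0.7 in knockout. All 10 listed markers of myeloid and dendritic cells, with Lyz2 the highest, summed to 40.6 to 69.3 FPKM in WT and 35.5 to 43.4 in knockout. Markers of dividing cells moved with the genotype: all 8 fell, with sums of 347, 307 and 498 FPKM in WT and of 39.3, 69.5 and 39.9 in knockout. In RNA from a sorted population, fewer cells of a type and less RNA per cell cannot be told apart. The part that dividing cells or dendritic cells play in the results was not tested. For B cells, only a fit with a covariate for their marker level was made, which is given below.

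Most respiratory chain genes were a little lower in the knockout libraries. Of the 88 tested, 12 fell at an adjusted p under 0.05 and 0 rose (edgeR's quasi-likelihood test, Benjamini-Hochberg adjustment over 10890 genes). The 12 are 13.6% of the members tested, against 8.77% of all genes tested, and 3.14% of all genes rose. All genes tested were not matched to the members for expression level, which can change how often genes pass or separate between groups. The 12 became 5 without WT replicate 3 or knockout replicate 3 and 6 without knockout replicate 1. At an unadjusted p under 0.05, 41 members were lower, against 16.1% of all genes, and 2 were higher, Cox7a2l and Ndufaf4. DESeq2 gave 1 member higher and limma gave 0. The fitted log2 fold change was below 0 in 81 of the 88 members (92%) and in 48.1% of all genes tested. The median was -0.22 over the members, a level of 85.6% of WT, and 0.014 over all genes. All 3 knockout values lay below all 3 WT values in 49 members, or 55.7%, against 16.8% of all genes tested. The reverse held for 2. For genes higher by unadjusted p, or with every knockout value above every WT value, the share of all genes was not counted. The members took between 1.29% and 1.35% of all counts in the WT libraries and between 1.12% and 1.19% in the knockout libraries.

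**Figure D1:**
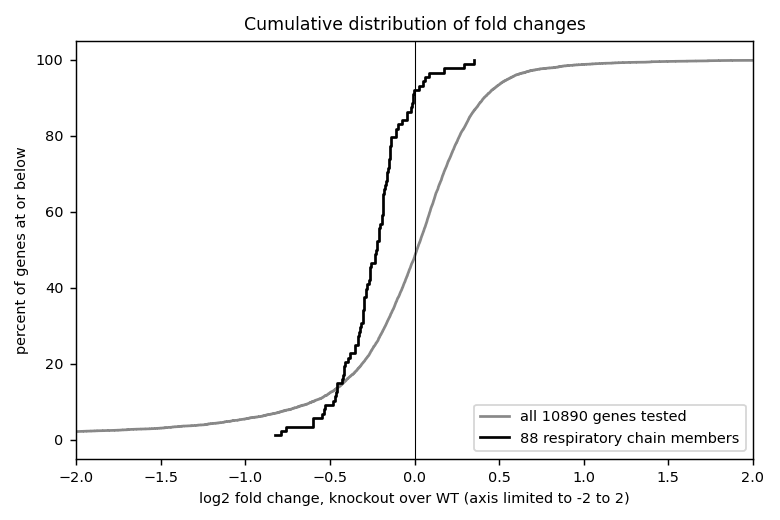
The share of genes (y axis, percent) at or below each log2 fold change of knockout over WT (x axis) is drawn for the 88 respiratory chain members in black and all 10890 genes tested in grey. The members' curve is steep and shifted to the left, with a median of -0.22, and ends between -0.83 and 0.35, while the grey curve has long tails.

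The differences were small in size. No member tested had a log2 fold change below -1, a level reached by 593 genes (5.45%) of all those tested, and 8 members (9.1%) were below -0.5, against 12.3% of all genes. Counts were simulated with the negative binomial dispersion of the fit. On these, the same test recovered 43% of genes changed 1.5-fold and 76% of genes changed 2-fold. Further spread of single genes and differences in cell content between libraries were not simulated. Most of the members' differences were smaller than 1.5-fold. The changed genes of the simulation were drawn at random from all 10890 genes tested. Its rates need not hold for the members, whose median level was 132 FPKM, and how often the test misses members was not measured.

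**Figure D2:**
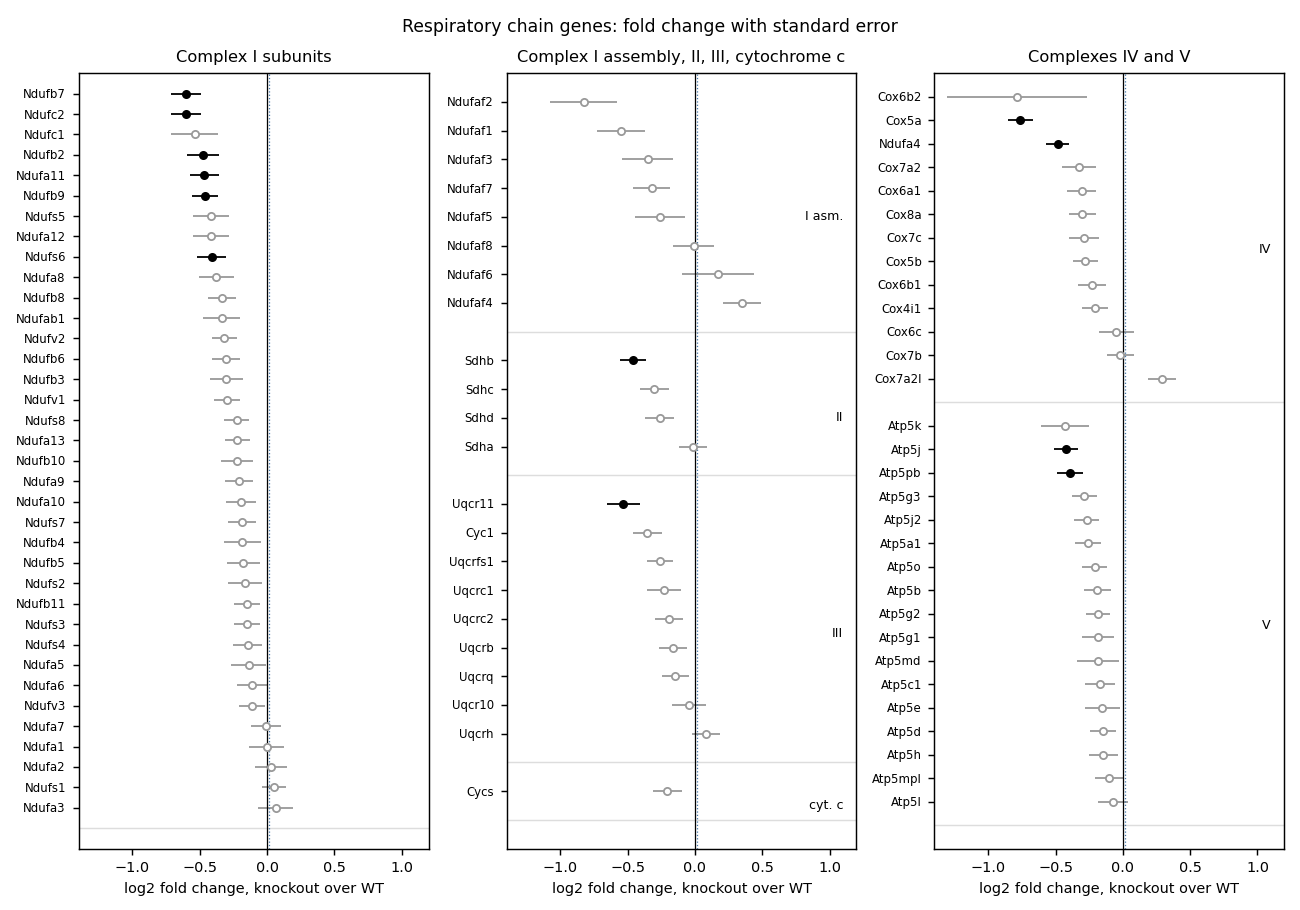
Each point is the log2 fold change of a tested member, knockout over WT (x axis), with its standard error as a bar, and members (y axis) are grouped by complex. Filled black points are the 12 members past the threshold, open grey points are the others, and the dotted line is the median of all genes tested. Points of every complex lie mostly left of 0, and Cox7a2l and Ndufaf4 stand farthest to the right.

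Promoter sequences are shown for 3 of the members that fell: Cox5a, with the smallest p, and Ndufa11 and Uqcr11, which hold the motif of NRF1, a factor known for driving nuclear respiratory chain genes. Each runs 5′ to 3′ from 100 bases before to 20 bases after the start that RefSeq's promoter table lists (GRCm38.p6). Capitals mark the NRF1 core GCATGCG or the ETS motif CCGGAAG, the latter bound by GABP among other factors, on either strand. Overlapping matches are joined. Cox5a lies on the plus strand at chr9:57521132-57521251, inside the listed gene span, Ndufa11 on the plus strand at chr17:56717662-56717781 and Uqcr11 on the minus strand at chr10:80406802-80406921.
Cox5a: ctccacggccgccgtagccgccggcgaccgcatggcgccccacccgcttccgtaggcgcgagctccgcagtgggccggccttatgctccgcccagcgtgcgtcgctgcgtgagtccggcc
Ndufa11: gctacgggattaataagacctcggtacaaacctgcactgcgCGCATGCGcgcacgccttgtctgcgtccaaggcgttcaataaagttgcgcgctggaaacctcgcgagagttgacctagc
Uqcr11: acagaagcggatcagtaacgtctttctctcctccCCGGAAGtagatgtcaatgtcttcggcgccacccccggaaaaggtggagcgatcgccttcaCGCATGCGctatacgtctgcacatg
The Cox5a stretch holds neither motif, which says only that these letters are not in it.

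Over the windows of 300 bases in that table, 75 members had a sequence. The NRF1 core was in 13 of the 75 (17.3%), against 7.2% of 8638 genes tested and 3.6% of all 27025 promoters. It was in 3 of 11 members that fell, which are Ndufa11, Sdhb and Uqcr11, and in 10 of 63 that did not pass. The ETS motif was in 24% of the members and 20.6% of the genes tested, and AAGATGG, a motif of YY1, in 14.7% and 8%. CACGTG, the E-box of MYC and MAX, was in 8% and 10.8%. E-boxes of the kind bound by E proteins, the factors that Id2 inhibits, were searched as CAGCTG or CACCTG on both strands. They were in 26.7% of the members, 18.2% of the members that fell, 28.4% of the genes tested and 32.6% of all promoters. These are matches of letters and not binding sites.

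Complex I has a matrix arm that takes electrons from NADH and a membrane arm that pumps protons. Of its 36 nuclear subunits tested, 6 fell and 0 rose (background 8.77% and 3.14%), and the median log2 fold change was -0.22. The 6 became 3 when any single WT library or knockout replicate 1 was left out, and 2 without knockout replicate 3. The catalytic core subunits, which hold the flavin and the iron-sulfur clusters, gave 0 of 7 past the threshold, with a median of -0.19. By unadjusted p, 3 of the 7 were lower in knockout and 0 higher, and in DESeq2 and limma 0 of the 7 passed. Of 19 accessory subunits of the membrane arm 5 fell, with a median of -0.3, and of 9 accessory subunits of the matrix arm 1 fell, with a median of -0.14. These groups were not tested against each other.

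The 5 membrane-arm subunits that fell were Ndufb7, Ndufc2, Ndufb2, Ndufa11 and Ndufb9. Ndufb7 stood at 186.31, 214.02 and 198.28 FPKM in WT and at 146.19, 131.75 and 119.63 in knockout (log2 fold change -0.6, SE 0.109, adjusted p = 0.0061, edgeR). Ndufc2 was at 82.57, 103.78 and 91.79 in WT and nearly level at 61.27, 61.27 and 62.38 in knockout (-0.6, SE 0.112, adjusted p = 0.00724). In both genes every knockout library was below every WT library, at about 66% of WT on average. Ndufb7 lies on chromosome 8 from 83566758 to 83571623 and Ndufc2 on chromosome 7 from 97400003 to 97407800.

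The other members of complex I that fell did so by less. Ndufb9 was at 186.11, 174.27 and 197.66 FPKM in WT and 140.69, 139.2 and 129.79 in knockout (log2 fold change -0.46, adjusted p = 0.0144, edgeR). Ndufa11 was at 24.27, 27.69 and 29.81 against 19.59, 21.84 and 18.36 (-0.47, adjusted p = 0.0219, edgeR). Its FPKM was low for the complex, on a listed transcript of 2661 bases and 381 to 663 counts a library. Ndufb2 was at 87.61, 101.05 and 97.18 against 70.88, 73.88 and 63.1 (-0.47, adjusted p = 0.0296). The matrix-arm subunit Ndufs6, which sits beside the NADH-oxidising module, was at 128.88, 147.52 and 121.14 against 94.01, 106.27 and 100.65 (-0.41, adjusted p = 0.0361). None of these 4, which were chosen for having passed, overlapped between groups. Of all genes tested, 16.8% had every knockout value below every WT value.

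Of the complex I subunits that did not pass, the lowest fitted value was that of Ndufc1 (-0.54, chosen after its values were seen), and others were near 0. The 2 most abundant subunits, both near 0, were Ndufa3, at 245 ± 28.4 FPKM in WT and 259 ± 20.6 in knockout (log2 fold change 0.06, 95% interval -0.22 to 0.35), and Ndufa1, at 221 ± 24.1 and 223 ± 21.2 (-0.0023, interval -0.29 to 0.29). The direction of Ndufa1 turned under other scalings. Ndufs1, the largest core subunit, was at 47.6, 47.34 and 51.95 FPKM in WT and 51.79, 51.7 and 50.6 in knockout (0.05, interval -0.15 to 0.25), a gene named after its values were seen. The core subunits Ndufv1 and Ndufv2, which bind NADH and take up its electrons, had knockout values below WT (background 16.8%). Neither passed (-0.3, adjusted p = 0.0766, and -0.32, adjusted p = 0.0582, edgeR). Ndufv2 was the member nearest the threshold from outside and Ndufs6 the nearest from inside.

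Assembly factors of complex I, which build the complex without staying in it, had mean levels of 5.46 to 48.5 FPKM over the 6 libraries, with a median of 10.1, against 23.6 to 252 and a median of 105 for its subunits. None of the 8 passed in edgeR, while 3 were lower and 1 higher by unadjusted p, DESeq2 passed 0 and limma on log2(FPKM + 1) passed 2, Ndufaf1 and Ndufaf2. Ndufaf2, a late-acting chaperone, stood at 11.87, 15.03 and 11.27 FPKM in WT and at 8.18, 5.98 and 7.47 in knockout. That is a log2 fold change of -0.83 on 31 to 86 counts a library (SE 0.249, adjusted p = 0.0593, edgeR), the lowest value of any member. Ndufaf4 was at 8.68, 10.27 and 7.84 FPKM in WT and at 11.6, 10.52 and 12.31 in knockout (0.35, adjusted p = 0.138), the highest value of any member. Ndufaf8 was level (-0.01, 95% interval -0.35 to 0.33), and Ndufaf3 was at -0.35 on the log2 scale (adjusted p = 0.272).

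Complex II joins the citric acid cycle to the chain, and all of its subunits are nuclear. Sdhb, the iron-sulfur subunit, stood at 188.61, 193.01 and 206.96 FPKM in WT and at 150.18, 136.81 and 144.6 in knockout, with no overlap. It fell by 0.46 on the log2 scale (SE 0.0977, adjusted p = 0.0135, edgeR). Sdha, the flavoprotein that oxidises succinate, was at 158.16, 156.6 and 180.27 against 177.81, 158.48 and 158.22, with overlapping groups and a log2 fold change of -0.01 (95% interval -0.25 to 0.22). The membrane anchors Sdhc and Sdhd lay between these, at -0.3 (adjusted p = 0.0967, edgeR) and -0.26 (adjusted p = 0.145). Sdhb, Sdhc and Sdhd each had every knockout value below every WT value, as did 16.8% of all genes tested. Of the 4 genes of the complex 1 fell (25%), against 8.77% of all genes tested. Sdhb lies on chromosome 4 from 140961271 to 140979198, and it did not pass without WT replicate 3 (adjusted p = 0.059, edgeR) or knockout replicate 3 (0.0711).

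In complex III, 1 of 9 genes (11.1%) fell and 0 rose, close to the 8.77% of all genes tested that fell, and the 1 did not pass without WT replicate 2, WT replicate 3 or knockout replicate 1. Uqcr11, a small accessory subunit, stood at 130.94, 152 and 162.87 FPKM in WT and at 99.41, 97.45 and 113.85 in knockout (log2 fold change -0.53, SE 0.123, adjusted p = 0.0199, edgeR). The catalytic subunit Cyc1, which carries the haem that reduces cytochrome c, was at 151.24, 146.45 and 183.35 against 128.03, 125.74 and 126.06 (-0.35, adjusted p = 0.0643). It passed with DESeq2 (adjusted p = 0.0451). Uqcrh, the most abundant in complex III, was at 391 ± 20.5 and 418 ± 31.4 (0.08, 95% interval -0.15 to 0.32), and Uqcrc1, a core protein, at 267 ± 29.2 and 229 ± 30.2 (-0.23, interval -0.51 to 0.048). By unadjusted p none was higher and 3 were lower, and in DESeq2 and limma 0 were higher. Cycs, the mobile cytochrome c, was at 76.07, 70.12 and 66.14 FPKM in WT and at 59.76, 60.11 and 66.21 in knockout, where the groups met (-0.21, adjusted p = 0.255).

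Complex IV held the member with the smallest p. Cox5a, a matrix-facing subunit of cytochrome c oxidase that joins the complex early with Cox4i1, stood at 207.34, 226.95 and 216.87 FPKM in WT and at 122.55, 138.97 and 126.69 in knockout. The groups were far apart, with the highest knockout library well below the lowest WT library. Cox5a fell by 0.76 on the log2 scale (SE 0.0905, adjusted p = 0.000624, edgeR), to 59% of WT. It lies on mm10 chromosome 9 from 57517328 to 57532427. Ndufa4, first described as a complex I subunit and now placed in complex IV, stood at 333.56, 345.85 and 345.52 FPKM in WT and at 247.88, 249.2 and 242.45 in knockout. The spread within each group was small beside the gap, and Ndufa4 fell by 0.48 (SE 0.0879, adjusted p = 0.0063, edgeR). It lies on chromosome 6 from 11900372 to 11907450.

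The other complex IV subunits stood closer to WT. Of the 11 subunits of the ubiquitous form, all had a fitted value below 0 and 9 had knockout values entirely below WT (background 16.8%), but only Cox5a and Ndufa4 passed. Cox4i1, the most abundant, was at 593 ± 36 FPKM in WT and 516 ± 25.4 in knockout (SD, n = 3), with a log2 fold change of -0.21 and a 95% interval of -0.42 to 0.0043. Cox6a1 was at 464 ± 8.39 and 378 ± 28.2 (log2 fold change -0.31, adjusted p = 0.0921, edgeR), and Cox8a at 443 ± 23.3 and 364 ± 17 (-0.3, adjusted p = 0.0832). For Cox6b1 the fitted value was -0.23 (adjusted p = 0.179) and for Cox7a2 it was -0.33 (adjusted p = 0.125). Cox6c and Cox7b, chosen here after their values were seen, were near 0 at -0.05 and -0.02.

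Cox7a2l went the other way. It encodes SCAF1, a relative of Cox7a2 that links complex III to complex IV in supercomplexes and is shortened in C57BL/6 mice. Its levels were 351.83, 377.76 and 328.11 FPKM in WT and 455.74, 411.51 and 440.99 in knockout, with no overlap. The log2 fold change was 0.29 (SE 0.104, 95% interval 0.061 to 0.53) and did not pass (adjusted p = 0.101, edgeR). It was the member that passed with DESeq2 (adjusted p = 0.0496). The muscle and tissue-restricted isoforms were scarce: Cox4i2 ranged from 0 to 0.5 FPKM, Cox6a2 from 0 to 0.37 and Cox7a1 from 0 to 1.94, and none of these 3 was tested. Cox6b2, the testis form, reached 2.2 FPKM and 10 counts at most (log2 fold change -0.79, 95% interval -1.95 to 0.38).

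**Figure D3:**
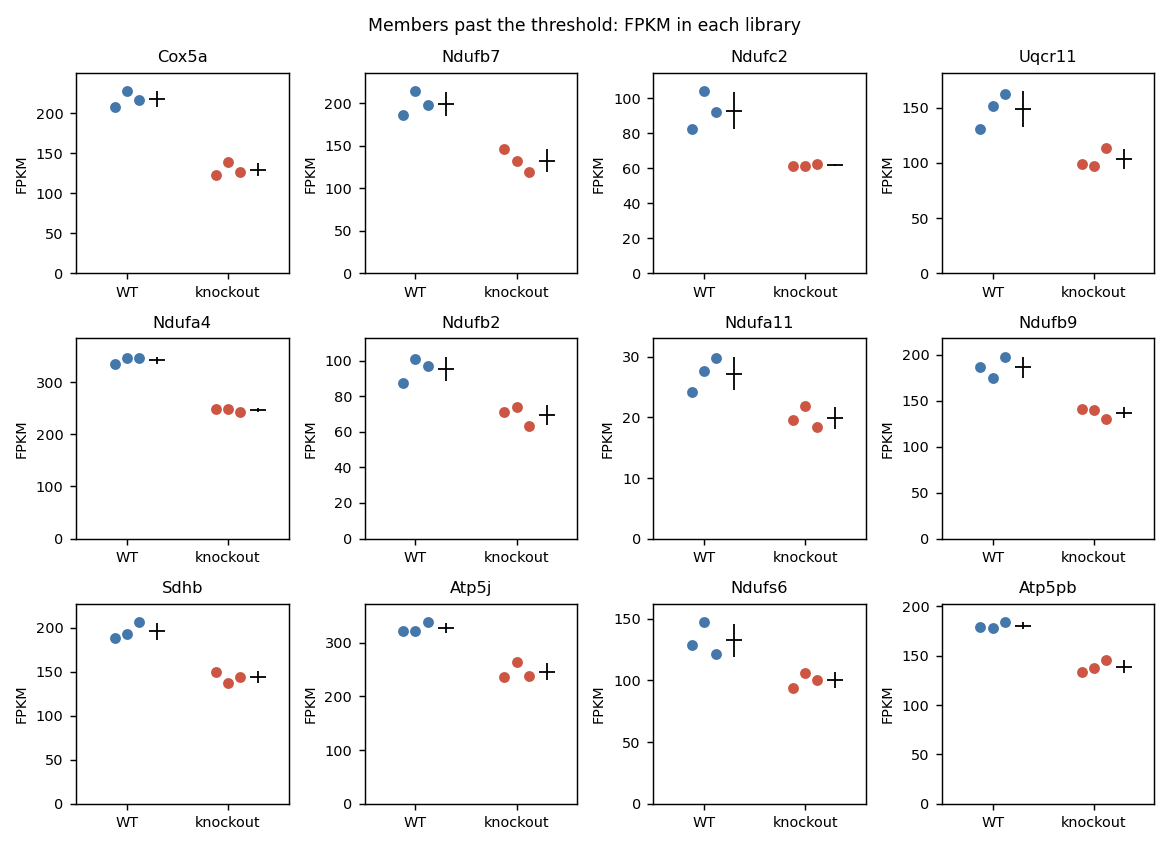
FPKM (y axis, from 0) in each of the 3 WT libraries (blue) and 3 knockout libraries (red) for the 12 members past the threshold, with the mean and SD in black beside the points. The groups do not overlap in any panel, in members chosen for having passed. Of all genes tested, 16.8% had every knockout value below every WT value. Cox5a has the lowest knockout level relative to WT, at 217 against 129 FPKM on average.

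In complex V all 17 genes had a fitted value below 0, between -0.43 and -0.07, against 48.1% of all genes tested below 0. Of the 17, 2 fell (11.8%), close to the 8.77% of all genes tested. The 2 became 1 without WT replicate 1, and neither passed when WT replicate 3 or knockout replicate 1 or 3 was left out. Both belong to the stalk that holds the catalytic head in place. Atp5j stood at 321.68, 322.48 and 338.79 FPKM in WT and at 236.29, 263.79 and 237.16 in knockout (log2 fold change -0.42, SE 0.0899, adjusted p = 0.0136, edgeR). Atp5pb was at 178.63, 178.42 and 184.25 against 133.31, 137.44 and 145.73 (-0.39, SE 0.0937, adjusted p = 0.0234). The other stalk genes, Atp5h and Atp5o, also had knockout values below WT (background 16.8%). Atp5h was at 436 ± 28.4 and 399 ± 13.5 (-0.14, 95% interval -0.38 to 0.092). Atp5b, the catalytic subunit and the most abundant of the 92 genes, was at 790 ± 71.9 and 699 ± 25.5 (-0.19, interval -0.42 to 0.041). Of the 5 head genes 0 passed in edgeR, DESeq2 or limma, and 1 was lower by unadjusted p. Atp5k had the lowest fitted value, -0.43, on overlapping groups (adjusted p = 0.149). Atp5l had the highest, -0.07, and stood at 0.009 without knockout replicate 2.

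Ratios of 2 members within a library do not depend on how libraries are scaled. The pairs were chosen after the members' values were seen, so their differences are a description with no test. The ratio of FPKM of Cox5a to Cox4i1, its partner in assembly, stood at 0.372, 0.361 and 0.365 among WT libraries and at 0.225, 0.273 and 0.256 among knockout libraries. For Sdhb to Sdha, which join in the catalytic head of complex II, it was 1.19, 1.23 and 1.15 against 0.845, 0.863 and 0.914. Ndufb7 to Ndufs1 was at 3.91, 4.52 and 3.82 against 2.82, 2.55 and 2.36, and Cox7a2l to Cox7a2 at 1.92, 2.5 and 2.14 against 3.59, 3.31 and 3.08. In these 4 pairs the groups did not overlap, and the same held for Cox5a to Cox5b and Ndufc2 to Ndufs1. For Uqcr11 to Uqcrc1 the groups nearly met, at 0.549, 0.571 and 0.548 in WT against 0.377, 0.456 and 0.542 in knockout. In Atp5j to Atp5b, at 0.429, 0.432 and 0.388 against 0.326, 0.391 and 0.34, the groups overlapped.

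**Figure D4:**
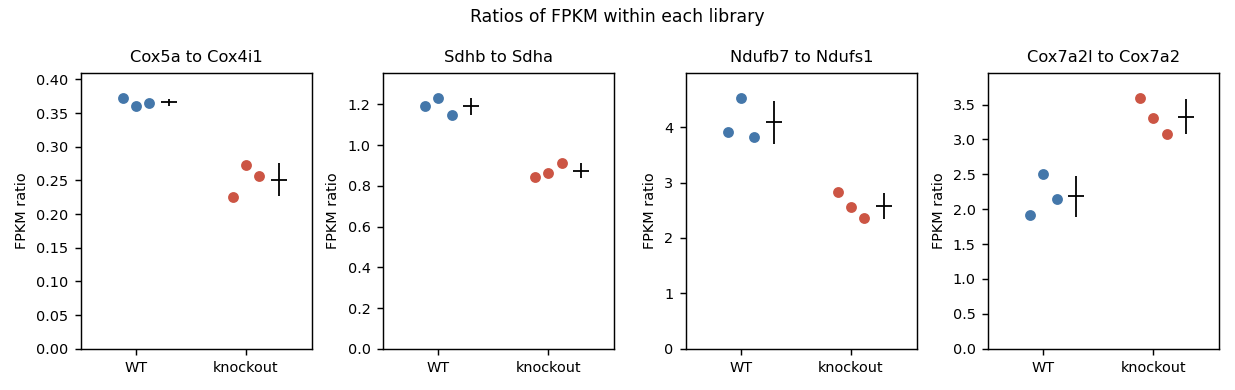
Ratio of the FPKM of 2 members in the same library (y axis, from 0) for the 3 WT (blue) and 3 knockout (red) libraries, with mean and SD in black. The first 3 ratios are lower in every knockout library, with Cox5a to Cox4i1 at 0.366 against 0.251 on average, and the ratio of Cox7a2l to Cox7a2 is higher, at 3.33 against 2.18.

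How many members passed rested on single libraries. Leaving out WT replicate 1, 2 or 3 gave 8, 9 or 5 members that fell, or 9.09%, 10.2% and 5.68% of the 88, against 7.37%, 7.7% and 5.18% of all genes tested. Leaving out knockout replicate 1, 2 or 3 gave 6, 14 or 5, or 6.82%, 15.9% and 5.68%, against 6.32%, 9.94% and 4.75%. No member rose in any of these 6 edgeR fits. Cox5a, Ndufb7, Ndufc2 and Ndufa4 passed in all 6. Sdhb passed in 4. Atp5j missed without WT replicate 3 (adjusted p = 0.0575, edgeR), knockout replicate 1 (0.0534) or knockout replicate 3 (0.0909), and Uqcr11 without WT replicate 2 (0.0539), WT replicate 3 (0.0882) or knockout replicate 1 (0.0679). Ndufb9 missed without WT replicate 1 (0.0509), WT replicate 3 (0.0623) or knockout replicate 3 (0.0947). For Atp5pb the adjusted p was 0.0671 or 0.0767 with WT replicate 1 or 3 left out, and 0.0784 or 0.0726 with knockout replicate 1 or 3 left out. Ndufa11 stood at 0.055 and 0.0921 without WT replicates 2 and 3 and at 0.068 and 0.128 without knockout replicates 1 and 3. Ndufs6 passed only without WT replicate 3 or knockout replicate 2, at 0.0902 and 0.116 without WT replicates 1 and 2 and 0.107 and 0.14 without knockout replicates 1 and 3. Ndufb2 passed only without knockout replicate 2. It was at 0.0576, 0.0827 or 0.0973 with a WT library left out (replicates 1 to 3) and at 0.0624 or 0.155 with knockout replicate 1 or 3 left out. With a covariate for B cell marker level, 11 members fell, among them Cox6a1 (adjusted p = 0.028) and Cox7a2 (0.0298), and Ndufb2 (0.0712), Ndufa11 (0.0588) and Ndufs6 (0.0636) did not.

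**Figure D5:**
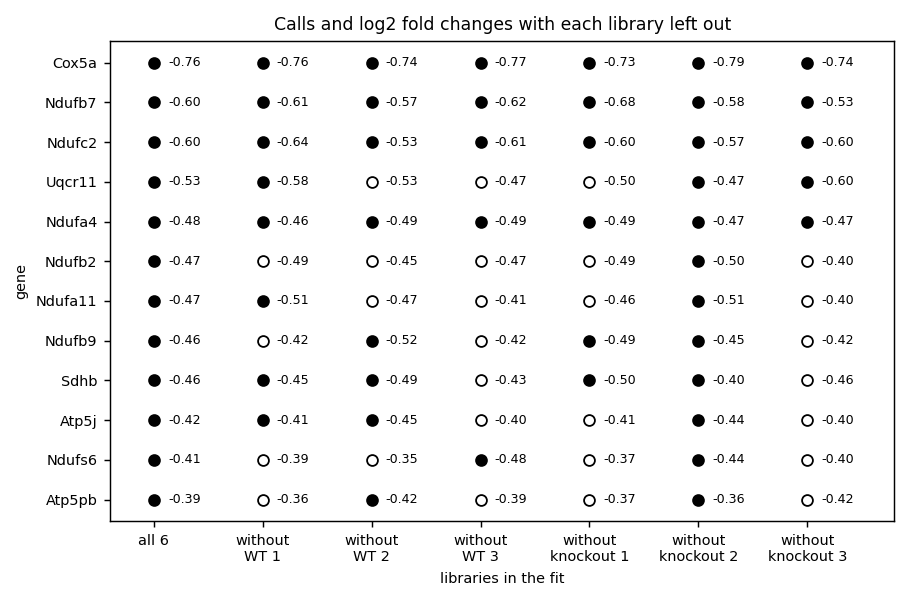
The 12 members past the threshold (y axis) in the fit of all 6 libraries and in the 6 fits that leave out 1 library (x axis), with the log2 fold change beside each point. Filled points passed an adjusted p of 0.05 and open points did not. The fold changes stay between -0.79 and -0.35, and 4 rows are filled throughout.

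Other mitochondrial gene lists were read in the same fit, beside a background of 8.77% lower and 3.14% higher. Of 45 tested assembly factors outside the symbol rule 2 fell and 0 rose, with a median of -0.0007. These were Cox17, the copper carrier for complex IV, at 154.91, 128.06 and 122.45 FPKM in WT against 75.48, 88.54 and 80.33 in knockout (log2 fold change -0.75, adjusted p = 0.00688, edgeR), and Higd1a (-0.55, adjusted p = 0.0172). Higd1a did not pass without WT replicate 1 (0.0603) or knockout replicate 3 (0.1). Of 18 genes of the citric acid cycle and pyruvate entry 4 fell, with a median of -0.08: the citrate synthase gene Cs (-0.52), Idh3a (-0.59), Sucla2 (-0.45) and the fumarase gene Fh1 (-0.76). Idh3a passed without each library, and the count of 4 became 1 without WT replicate 3 or knockout replicate 3 and 2 without knockout replicate 2. Cs missed without WT replicate 3 (adjusted p = 0.107) or knockout replicates 1 to 3 (0.0905, 0.0657 and 0.156). Sucla2 missed without WT replicates 2 and 3 (0.109 and 0.128) or knockout replicates 2 and 3 (0.0693 and 0.144), and Fh1 without WT replicate 3 (0.0549) or knockout replicate 3 (0.0751).

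Of 22 tested genes for import, channels and carriers 3 fell, with a median of -0.22: Vdac3 (88.9 ± 7.06 to 51.3 ± 4.02 FPKM) and Vdac1 (30.6 ± 3.43 to 18.3 ± 3.62), which encode channels of the outer membrane, and the chaperonin gene Hspd1 (162 ± 10.7 to 116 ± 3.84). Hspd1 missed without knockout replicate 3 (adjusted p = 0.0702, edgeR). Of 16 tested regulators of mitochondrial transcription and biogenesis 0 fell and 1 rose, with a median of 0.02. It was Ppargc1b, a coactivator related to PGC-1 alpha, at 3, 3.06 and 4.17 FPKM in WT and 5.22, 5.81 and 5.7 in knockout (log2 fold change 0.69, adjusted p = 0.0334, edgeR). It passed in 1 of the fits that leave out a library, without WT replicate 3 (0.0311), and missed in the others, at 0.0857 or 0.0988 with WT replicate 1 or 2 left out and 0.0698, 0.0527 or 0.122 with knockout replicate 1, 2 or 3 left out. Nrf1, which encodes NRF1, was level at 27.3 ± 1.47 and 26.9 ± 2.09 FPKM (-0.02, 95% interval -0.26 to 0.22). No other member of these 4 lists passed in the fit of all 6 libraries.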

How the data were processed

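RNA-seq of 6 libraries was read, 3 WT and 3 knockout, grouped by the titles. Per the submitters' processing notes, Bowtie2, RSEM and CASAVA were used with mm10. The deposited tables give RSEM expected counts and FPKM values per gene, per the file headers, and about 25% of expected counts were not whole. Genes missing from a table were taken as 0. Use of strand in counting, aligner settings and tool versions were not given in the sources used here.

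NCBI gene numbers were matched to symbols in the RefSeq table of GRCm38.p6 (16707 of 16749). Rounded expected counts were scaled by TMM and tested, two-sided, with edgeR 4.0.16 in R 4.3.3 on the 10890 genes that reached an FPKM of 1 in 3 or more of the 6 libraries. Standard errors are the log2 fold change divided by the square root of F, and intervals are 95%. Alternatives were DESeq2 1.42.0, its size factors, library totals, limma 3.58.1 on log2(FPKM + 1) or log2(FPKM + 0.1), no filter, a minimum FPKM of 5, a replicate block, a B cell covariate and each library left out. The test was tried on simulated counts, with 3 false calls among 122, a rate that need not hold for these libraries.

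The members and lists were chosen with earlier results of these data known. Named are members past the threshold, the 2 most abundant and the 2 extreme members of each complex, isoform pairs, Cyc1, Cycs, the Sdh genes and members of the 4 other lists past the threshold; other genes were named after their values were seen. Within groups, every pair of libraries differed by more than sampling noise (chi-square over its degrees of freedom from 5.62 to 18.6). The block is described with the sensitivity results.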

Additional observations from a re-analysis of the deposited data

How the results depend on the processing

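Over 15 alternatives the members' median log2 fold change stayed within the spread between libraries (SD 0.0553) of -0.224. The number that fell was between 10 and 13 in the 9 alternatives that kept all libraries and ranged from 5 to 14 with 1 library left out. The number that rose was 0 in all but DESeq2, which gave 1. Between 74 and 84 members were below 0. With the replicate number as a block 10 fell and 0 rose. Ndufb2 (adjusted p = 0.053) and Ndufs6 (0.0546) did not pass there. Deviations of same-numbered libraries correlated at 0.118, 0.075 and -0.0303, and 2 of 6 libraries correlated best with their own number. These values do not show that the numbers pair the samples, and with 3 libraries a group they cannot show that they do not. Ndufs6 also missed with library totals (0.0551), and Ndufa11 with limma (0.0532 and 0.0549). Counts by group moved more: complex I gave 3 with the B cell covariate, complex III 2 with DESeq2, complex IV 4 with the B cell covariate, the complex I assembly factors 2 with limma and 1 at a minimum FPKM of 5, the citric acid cycle 2 with limma or the B cell covariate, import and channels 5 with DESeq2, and the regulators 2 higher with the B cell covariate.

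Members near 0 changed sign. Ndufa1 stood at 0.006 with DESeq2 and with its size factors, 0.011 with library totals and with no filter, 0.014 with limma and 0.002 at a minimum FPKM of 5. Ndufaf8 was at 0.005 with library totals, 0.007 with limma and 0.004 with no filter. Ndufa3 was at -0.051 and Uqcrh at -0.007 with the B cell covariate. With 1 library left out, Ndufa1 ranged from -0.084 to 0.124, Ndufaf8 from -0.078 to 0.103, Sdha from -0.076 to 0.044, Ndufa3 from -0.012 to 0.201 and Atp5l from -0.141 to 0.009. The cause was not tested.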

Other observations

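Short transcripts and shared sequence limit some members. Their transcripts were between 349 and 3632 bases long, with a median of 720, and 11 of the 92 have at least 1 pseudogene named after them in the RefSeq table, so their share of reads is uncertain. Of the members that fell, Atp5pb is among these. The symbol rule also took 1 pseudogene, Ndufs5-ps, listed in knockout replicate 3 alone at 1.25 FPKM. Exons of Ndufa11, Ndufs6 and Atp5j overlap those of Vmac, Mrpl36 and Gabpa on the opposite strand in GENCODE M21, those of Ndufb2 overlap Braf and Gm16272 there, and those of Cox5a the noncoding Gm26631, and without knowledge of the strand their reads cannot be separated. Exons of Ndufb9 and Ndufb2 also overlap protein-coding models on the same strand, Gm49356 and Gm42420, which strand would not separate. Atp5pb was not found by its symbol in GENCODE M21, so its overlaps were not checked. The 3 X-linked members, Ndufa1, Ndufb11 and Cox7b, had overlapping groups, with log2 fold changes of -0.0023, -0.15 and -0.02.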
